A study of Mus musculus with 9 samples.

Results

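The splicing factor genes described here are the 83 entries, of 13588 in the deposited expression table, whose Ensembl identifier matched a mouse gene symbol beginning with Snrp, Snrnp, Srsf, Sf3, Prpf, Hnrnp or Lsm. Snrpn, a gene of the targeted locus, was left out by that rule. The rule used names only and no expression value. The 7 families held 11 Snrp, 7 Snrnp, 11 Srsf, 9 Sf3, 13 Prpf, 20 Hnrnp and 12 Lsm genes, all 83 annotated as protein coding. The annotation lists 85 protein-coding genes with such names, of which Lsm5 and Lsmem1 were not analysed here.

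Pre-mRNA splicing is carried out by the spliceosome, which is built from small nuclear ribonucleoproteins (snRNPs), each a small nuclear RNA wrapped in proteins. Sm proteins form the ring around most spliceosomal RNAs, LSm proteins form the ring of U6, and SF3 proteins belong to the U2 particle that holds the branch point. SR proteins, encoded by the Srsf genes, and hnRNP proteins bind the pre-mRNA itself and influence which exons are kept, and in the brain such choices differ between neurons and other cells.

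The libraries came from male mice, labelled as strain C57/BL6 (C57BL/6J in the study's methods) and homozygous for the floxed Snord116tm1Uta/J allele, which the AAV-GFP controls carried too, and the question was how the hypothalamus responds when Snord116 is deleted in adults. At 10 to 12 weeks of age the mice received either an AAV that expresses Cre (6 mice) or an AAV that expresses GFP (3 mice) on both sides of the mediobasal hypothalamus, and brains were frozen 10 weeks later. Regions were captured by laser, for Cre according to staining of adjacent sections, and each library is 1 mouse. The AAV-Cre mice were classed by body weight as obese or nonobese, with 3 libraries each.

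Several features limit these groups as a model. The vectors had different promoters, CAG for Cre and CMV for GFP, and the Cre vector was given at a higher particle concentration. All cells of a captured region entered the RNA, whether or not a virus had reached them. The weight labels also go against the sample titles, since the 3 AAV-Cre libraries titled with the word obese are labelled nonobese and the other 3 are labelled obese. The weight label is followed here, so that each AAV-Cre subset is named as labelled obese or labelled nonobese. Every AAV-Cre library has the sequencing index D502 and every AAV-GFP library D503, so that index and treatment cannot be told apart.

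The values are signal, that is, reads per gene divided by a scaled library size, on the scale of CPM. Libraries held between 3929672 and 5766994 reads on the listed entries, and 3 reads, taken as the lowest level told apart from 0, corresponded to a signal of 0.525 to 0.786 by counting error alone. The entry for Cre had a signal of 1330, 8557 and 234.9 in replicates 1, 2 and 3 labelled obese, of 4644, 5136 and 7064 in those labelled nonobese, and of at most 0.957 in AAV-GFP mice, while the GFP entry was at 0 reads in all 6 AAV-Cre libraries. Vector transcripts therefore followed the treatment labels in 9 of 9 libraries. Snord116 itself was not analysed here. The summed signal of 8 neuron markers was 3945 and 3650 in replicates 1 and 3 labelled obese and 4531 to 5907 in the other 7 libraries. That of 12 hypothalamic markers was 244.9 to 585.7, but single markers were absent from some libraries: Nr5a1, of the ventromedial nucleus, was at 0 in AAV-GFP replicate 3, replicates 1 and 3 labelled obese and replicate 3 labelled nonobese, and ran from 15.2 to 46.1 in the others. Fezf1 was at most 3.63 in the same 4 libraries, and Agrp, of the arcuate nucleus, was at 0 in replicates 1 and 3 labelled obese. Libraries of 1 group thus differed in these nuclear markers. Replicate 3 of every group was low in Nr5a1 and Fezf1, and also in Pomc, at 8.16 (AAV-GFP), 4.65 (labelled obese) and 12.8 (labelled nonobese). Pomc ran from 36 to 100.5 in the other libraries. The study's methods describe the AAV-GFP controls as region-matched. The part of these marker differences in the values below was not tested. Replicates 1 and 3 labelled obese stood apart: the summed signal of 4 MHC class II genes was 1907 and 2102 there and at most 15.4 in the other 7 libraries, and that of 11 microglia and macrophage genes was 1064 and 998.5 against at most 201.

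Transcripts of all 83 members passed the filter on low values (3 or more libraries at a signal of 1 or above), and together they made up 0.697% to 0.794% of the reads of a library. Lsm10 was the 1 member with no read in some libraries (replicate 3 labelled obese and replicate 2 labelled nonobese). Fewer cells of a type and less RNA per cell cannot be told apart in such regions.

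In the limma test, no splicing factor gene of these families differed between AAV-Cre and AAV-GFP mice at a false discovery rate (FDR) under 0.1. On the log2(signal + 1) scale, tested with limma over 13506 entries, 0 of the 83 members were called in AAV-Cre mice labelled obese against AAV-GFP mice, where 0.555% of all entries were. In the mice labelled nonobese 0 of 83 were called (0.0148% of all entries), in all 6 AAV-Cre mice against AAV-GFP 0 of 83 (0.0222% of all entries), and between the subsets 0 of 83 (0.948% of all entries). Of these shares, the first rose to 5.27% and the last to 6.72% without replicate 2 labelled obese, where 0 members were called too. The lowest FDR of a member in these comparisons was 0.203, 0.999, 0.999 and 0.313, in the same order. At an unadjusted p under 0.05 from limma there were 7, 2, 3 and 4 members, or 8.43%, 2.41%, 3.61% and 4.82% of the 83, and the shares of all entries were 9.88%, 2.27%, 3.14% and 11.4%. These members were higher in the AAV-Cre mice in all 3 comparisons with AAV-GFP, where 5.11%, 1.04% and 1.81% of all entries were higher and 4.78%, 1.23% and 1.33% lower at that level, and 2 of the 4 were higher in mice labelled nonobese than in those labelled obese (5.13% of all entries) and 2 lower (6.26%).

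Count tests on the recovered reads gave nearly the same. The edgeR quasi-likelihood test called 0 members in each comparison (0.689%, 0.0148%, 0.0148% and 1.04% of all entries, in the order above). The edgeR likelihood ratio test called 1 member in the mice labelled obese (1.93% of all entries) and 0 in the others (0.0444%, 0.0518% and 2.95%). DESeq2 likewise called 1 member in mice labelled obese (2.04% of all entries) and 0 in the others (0.0148%, 0.0667% and 2.88%). The member called by both was Snrnp27.

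The center of the families moved little. The median log2 fold change (log2 FC) of the 83 members was 0.02, 0.05 and 0.06 in mice labelled obese, mice labelled nonobese and the 6 AAV-Cre mice together, against −0.04, −0.02 and −0.03 over all entries. Log2 FCs of single members ran from −1.25 to 1.33 in mice labelled obese and from −0.94 to 1.08 in mice labelled nonobese. The limma 95% interval of the change lay within a 2-fold change in either direction for 46, 48 and 53 of the 83 members in the 3 comparisons with AAV-GFP, and within 1.5-fold for 16, 21 and 29. For the remaining members these libraries leave larger changes possible, and the lack of a call does not show that they stayed the same.

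**Figure D1:**
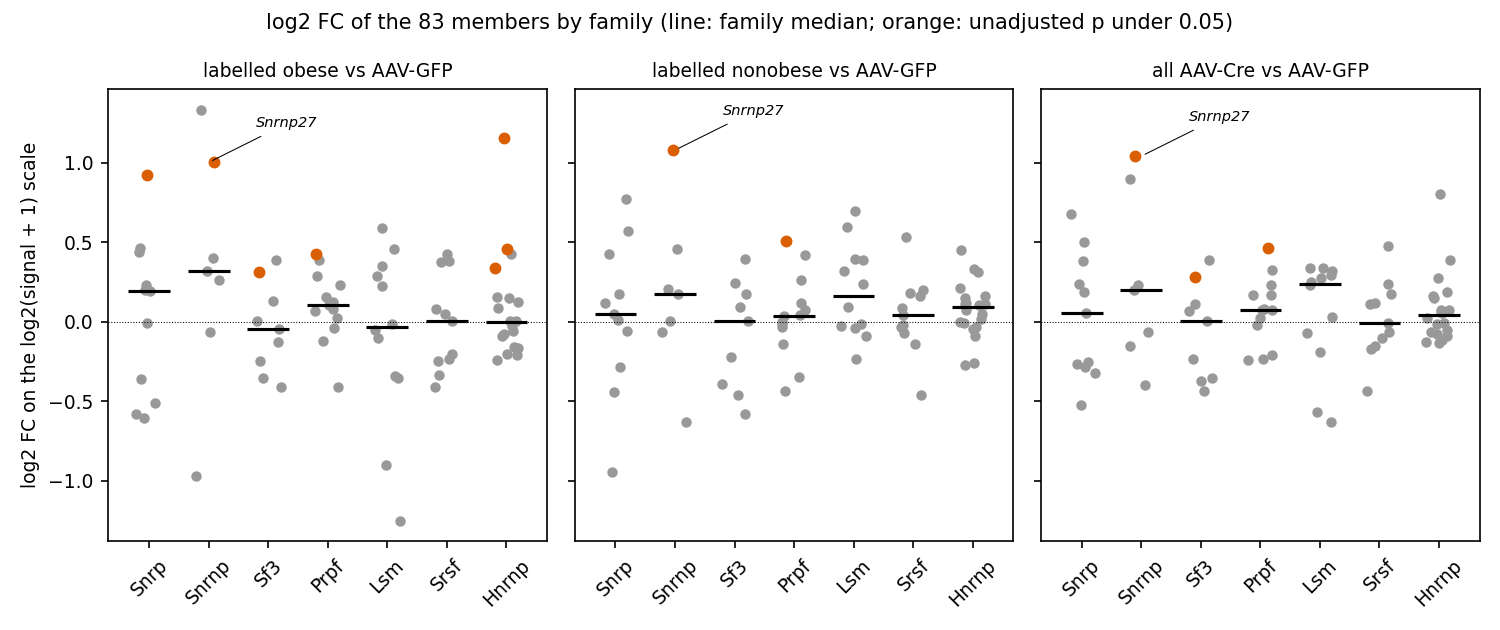
Log2 FC (y axis, on the log2(signal + 1) scale) of each of the 83 members, grouped by gene family (x axis), for mice labelled obese, mice labelled nonobese and all AAV-Cre mice against AAV-GFP mice. Each point is a gene, black lines are family medians and orange marks an unadjusted limma p under 0.05. Most points lie near 0, and Snrnp27 is high in each panel with log2 FCs of 1.002, 1.08 and 1.04.

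The member with the lowest p in each comparison with AAV-GFP mice was Snrnp27 (ENSMUSG00000001158), which encodes a protein of the U4/U6.U5 particle and lies on the minus strand of chromosome 6, from 86675151 to 86684522 of GRCm38. Its signal was 34.2, 30.6 and 27.97 in the AAV-GFP mice. It was 59.2, 92.8 and 44.8 in the mice labelled obese and 53.4, 81.5 and 66.8 in those labelled nonobese. All 6 AAV-Cre values were above the highest AAV-GFP value, and the subsets overlapped each other. Means were 30.9 ± 3.11 (SD, n = 3 mice), 65.6 ± 24.6 (SD, n = 3) and 67.2 ± 14.0 (SD, n = 3). The log2 FC against AAV-GFP was 1.002 (SE 0.30, limma FDR = 0.203) in mice labelled obese and 1.08 (SE 0.30, limma FDR = 0.999) in mice labelled nonobese. Over all AAV-Cre mice it was 1.04 (SE 0.26, 95% interval 0.50 to 1.58), with an unadjusted limma p of 0.000631 and an FDR of 0.999. The exact 2-sided permutation p was 0.0119, the smallest that 6 mice against 3 can give. It is unadjusted, for a gene picked by its low p from the same values. Of all entries, 2.01% likewise had no overlap between these groups. The fold was 2.06 on this scale, higher in 6 of 6 AAV-Cre mice, and the difference did not pass correction over all entries by limma.

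The call of Snrnp27 depended on the test in mice labelled obese, where its FDR was 0.0784 by the edgeR likelihood ratio test and 0.0614 by DESeq2, against 0.187 by the edgeR quasi-likelihood test. Without any 1 of the 9 libraries the limma log2 FC in mice labelled obese lay between 0.72 and 1.24. Its FDR then lay between 0.188 and 0.497. The highest value of 92.8 came from replicate 2 labelled obese, the library of that subset with the highest Cre signal and with MHC class II genes near control level. With the immune-rich replicates 1 and 3 both left out, a choice made after the values were seen, the subset was that 1 library, its log2 FC was 1.56 and the limma FDR was 0.0959 (0.33% of all entries called), the lone library being assumed to vary like the other groups. Among the mice labelled obese the order of Snrnp27 (92.8, 59.2, 44.8) was that of the Cre signal (8557, 1330, 234.9), and among those labelled nonobese it was not. This order of 3 libraries was noticed after the values were seen, and a link to Cre was not tested. The same libraries differed in MHC class II genes and in Nr5a1 too, so that these cannot be told apart.

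Sf3b2 (ENSMUSG00000024853), which encodes a subunit of the SF3B complex that grips the branch point within the U2 particle, was the other member whose AAV-Cre and AAV-GFP libraries did not overlap. Its signal was 376, 397 and 359 in AAV-GFP mice, against 506, 442 and 459 in mice labelled obese and 509, 402 and 435 in mice labelled nonobese. The lowest AAV-Cre library was only slightly above the highest control. The log2 FC over all AAV-Cre mice was 0.28 (SE 0.13, limma FDR = 0.999). Over the 2 genes together, the non-overlapping members made up 2.41% of the 83, against 2.01% of all entries without overlap between these groups. Both were higher in AAV-Cre mice, as were 0.933% of all entries, and 0 members were lower throughout, as were 1.08%.

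Prpf38b encodes a pre-mRNA splicing factor and was the third member at an unadjusted p under 0.05 over all AAV-Cre mice. Its signal was 132, 110 and 98.7 in AAV-GFP mice, 153, 179 and 127 in mice labelled obese, and 141, 171 and 171 in mice labelled nonobese. Only replicate 3 labelled obese fell among the controls. The log2 FC over all AAV-Cre mice was 0.46 (SE 0.18, limma FDR = 0.999). For Sf3b2 and Prpf38b the log2 FC kept its direction in each fit without 1 library, from 0.24 to 0.32 and from 0.37 to 0.58.

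**Figure D2:**
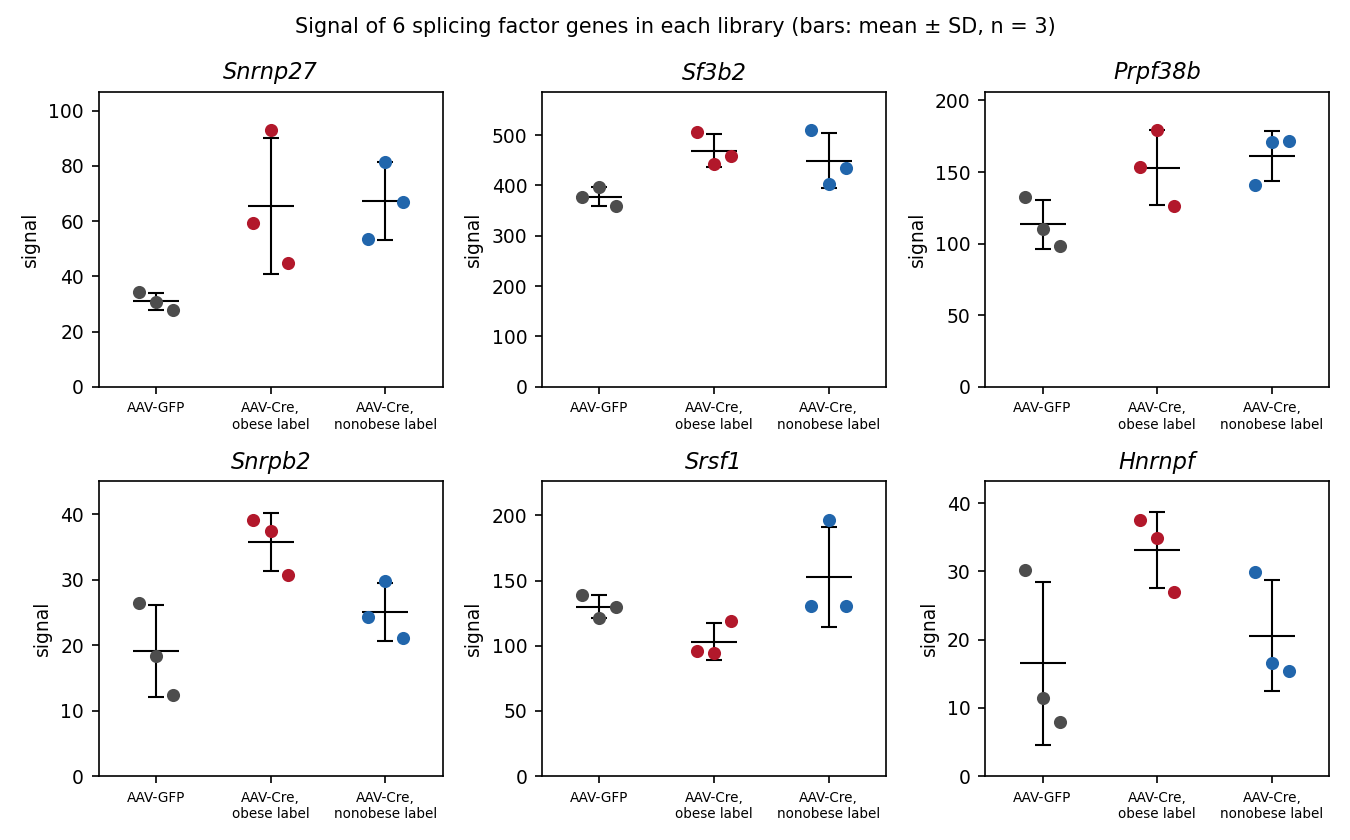
Signal (y axis, from 0) of 6 members in each of the 9 libraries, by group (x axis). Points are mice, horizontal marks are means and bars are SDs of 3 mice. For Snrnp27 and Sf3b2 all AAV-Cre points lie above the AAV-GFP points, for Snrpb2 this holds for the mice labelled obese, and for Srsf1 the mice labelled obese lie below both other groups.

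The start regions of Snrnp27 and Sf3b2 are printed because these genes had separate AAV-Cre and AAV-GFP values, a choice made after the values were seen. They are RefSeq sequences of GRCm38.p6, on the minus strand, of the bases that end at or just before the annotated start of transcription. Capitals mark CCGGAAGT, the core of sites bound by ETS family factors, which was searched on both strands.
Snrnp27, chr6:86684523-86684641: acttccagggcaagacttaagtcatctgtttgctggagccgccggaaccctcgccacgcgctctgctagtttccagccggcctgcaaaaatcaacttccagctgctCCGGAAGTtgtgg
Sf3b2, chr19:5295458-5295607: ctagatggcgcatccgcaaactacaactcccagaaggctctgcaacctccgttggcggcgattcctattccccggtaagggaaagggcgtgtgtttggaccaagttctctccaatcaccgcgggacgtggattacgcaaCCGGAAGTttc

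Of the 83 members, 71 had a RefSeq start region in the table used, a window of 300 bases around the start. CCGGAAGT was in 11 of these windows (15.5%), against 8.1% of the 10187 windows of tested entries and 4% of all 27025 windows. The other members with it were Snrpe, Prpf6, Prpf4b, Sf3a1, Sf3a3, Srsf4, Srsf5, Hnrnpd and Hnrnpf. GGGCGG, the core of GC boxes, was in 52 windows (73.2%), against 64.3% of those of tested entries. CCAAT was in 32 (45.1% against 38.2%), TATAAA in 7 (9.86% against 6.7%) and TGACGTCA in 2 (2.82% against 3.31%). The median window of the members held 24 CG dinucleotides, against 21 for tested entries. These are counts of letters and do not show binding.

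The Sm core genes, whose protein ring is shared by most spliceosomal particles, were Snrpb, Snrpd1, Snrpd2, Snrpd3, Snrpe, Snrpf and Snrpg. Their summed signal was 108.2 to 132.6 in AAV-GFP mice, 73.4 to 147.5 in mice labelled obese and 112.5 to 138.7 in mice labelled nonobese, so that the groups overlapped. The lowest sum, 73.4, was that of replicate 3 labelled obese. Snrpb, the nearest paralog of the left-out Snrpn, had a signal of 19.2, 30.4 and 29.9 in AAV-GFP mice, of 31.5, 35.6 and 23.9 in mice labelled obese, and of 25.02, 32.7 and 31.2 in mice labelled nonobese. Its groups overlapped, with a log2 FC of 0.19 (SE 0.31) over all AAV-Cre mice.

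Snrpe was the Sm gene with the largest SD of log2(signal + 1) over the 9 libraries (0.75). Its signal was 11.97, 12.6 and 14.2 in AAV-GFP mice, 21.6, 19.97 and 13.0 in mice labelled obese, and 4.37, 12.3 and 4.27 in mice labelled nonobese. The lowest library labelled obese was slightly above the highest labelled nonobese, and the log2 FC of nonobese minus obese was −1.38 (SE 0.57, limma FDR = 0.337). Snrpf and Snrpg were sparse, with 276 and 152 reads over the 9 libraries. The log2 FCs of Snrpd1, Snrpd2 and Snrpd3 over all AAV-Cre mice were 0.06, −0.52 and −0.27, and of Snrpf and Snrpg 0.50 and 0.38, each with an SE of 0.38 to 0.72.

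Among proteins of the U1 and U2 particles, 14 genes were measured, and 7 had a log2 FC above 0 in the obese-labelled subset and 8 in the nonobese-labelled subset. Their summed signal was 1061 to 1219 in AAV-GFP mice, 1199 to 1365 in mice labelled obese and 1207 to 1247 in mice labelled nonobese. Snrpb2, which encodes the B double prime protein of U2, had a signal of 26.4, 18.4 and 12.4 in AAV-GFP mice, against 39.1, 37.4 and 30.7 in mice labelled obese and 24.3, 29.9 and 21.1 in mice labelled nonobese. The mice labelled obese lay above both other groups, with a log2 FC of 0.93 (SE 0.39, limma FDR = 0.417) against AAV-GFP and of −0.50 (SE 0.39, limma FDR = 0.665) for nonobese minus obese.

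Snrpa, which encodes the A protein of U1, went the other way by level, with 44.4, 30.8 and 35.2 in AAV-GFP mice, 21.8, 29.5 and 24.9 in mice labelled obese and 29.9, 33.0 and 42.7 in mice labelled nonobese. The mice labelled obese lay below the other 6, with a log2 FC of −0.51 (SE 0.34) against AAV-GFP. Sf3b1, the SF3B subunit at the branch point, had a log2 FC of −0.24 (SE 0.17) over all AAV-Cre mice, beside the 0.28 of its partner Sf3b2. Snrnp70, the U1 70K gene, had 0.23 (SE 0.17) and Sf3a1 0.11 (SE 0.20).

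The 8 genes of the U4/U6.U5 particle included Snrnp27 and the U5 core genes Prpf8, Snrnp200, Prpf6 and Snrnp40. Apart from Snrnp27, their log2 FCs over all AAV-Cre mice lay between −0.24 and 0.32. Prpf8, the scaffold of the active site, had a signal of 241, 230 and 265 in AAV-GFP mice, 232, 282 and 310 in mice labelled obese, and 234, 250 and 245 in mice labelled nonobese, with a log2 FC of 0.07 (SE 0.15) over all AAV-Cre mice. Snrnp200, the helicase that unwinds U4 from U6, had −0.07 (SE 0.16). Prpf31, Prpf3 and Prpf4 had 0.32, −0.24 and 0.17, with SEs of 0.35 to 0.47. Of the 8, 4 had a log2 FC above 0 over all AAV-Cre mice.

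Of the other Prpf genes, Prpf18, a factor of the second step of splicing, had 52.1, 43.5 and 53.2 in AAV-GFP mice and 53.2, 19.9 and 44.6 in mice labelled nonobese. With 1 low library, the log2 FC was −0.44 (SE 0.35). Prpf19, a ubiquitin ligase of the spliceosome, had a log2 FC of 0.08 (SE 0.22) over all AAV-Cre mice, and the kinase gene Prpf4b one of 0.07 (SE 0.16).

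The minor spliceosome, which removes a small class of introns, was represented by Snrnp25, Snrnp35 and Snrnp48. Snrnp35 had a signal of 3.99, 3.83 and 5.05 in AAV-GFP mice, against 8.55, 10.7 and 19.98 in mice labelled obese and 10.8, 6.55 and 3.20 in mice labelled nonobese. Only the mice labelled obese were clear of the controls, with the largest log2 FC of any member in that comparison, 1.33 (SE 0.67, limma FDR = 0.524). Snrnp25 was at 2.49, 7.28 and 3.69 in AAV-GFP mice and at 2.48, 0.681 and 2.09 in mice labelled obese, the second of these from 3 reads. Its log2 FC was −0.97 (SE 0.84).

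The LSm ring of U6 was measured through 6 genes. Lsm6 had a signal of 34.9, 31.8 and 40.6 in AAV-GFP mice, 33.1, 36.1 and 18.1 in mice labelled obese, and 47.1, 57.6 and 38.4 in mice labelled nonobese. Its AAV-Cre subsets did not overlap, with a log2 FC of 0.73 (SE 0.34, limma FDR = 0.412) for nonobese minus obese. The summed signal of the ring was 77.8 to 90.1 in AAV-GFP mice, 69.9 to 94.2 in mice labelled obese and 94.0 to 111.3 in mice labelled nonobese.

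Other LSm genes act outside splicing or in other particles. Lsm10 and Lsm11 encode the Sm-like proteins of U7, the particle that processes histone mRNA, and both were sparse. Lsm11 had 10.97, 8.43 and 10.7 in AAV-GFP mice, 9.90, 1.36 and 2.79 in mice labelled obese, and 4.90, 20.7 and 8.96 in mice labelled nonobese. Its log2 FC in mice labelled obese, −1.25 (SE 0.72), was the lowest of the 83 members. Without replicate 1 labelled obese it was −1.87 and without replicate 2 −0.77, and with a pseudocount of 5 it was −0.73. Lsm10 had 8.73, 2.68 and 2.33 in AAV-GFP mice, 6.75, 1.36 and 0 in mice labelled obese, and 8.05, 0 and 7.04 in mice labelled nonobese. Lsm12 had log2 FCs of −0.01 and 0.60 (SE 0.41 for each) in the subsets labelled obese and nonobese, the latter with a signal of 60.0 in replicate 3 against 25.2 and 27.8 in the others.

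The 11 SR protein genes held 0 members with an unadjusted limma p under 0.05 in either subset or in all AAV-Cre mice, each set against the controls, and 0 with an FDR under 0.1 by limma, edgeR or DESeq2. Their summed signal was 842.9 to 1001 in AAV-GFP mice, 796.6 to 960.4 in mice labelled obese and 901.2 to 1047 in mice labelled nonobese. Srsf1, the founding member of the family, had 139, 121 and 130 in AAV-GFP mice, 96.3, 94.2 and 119 in mice labelled obese, and 130, 197 and 130 in mice labelled nonobese. The mice labelled obese lay below the other 6, and the log2 FC of nonobese minus obese was 0.54 (SE 0.21, limma FDR = 0.313). Srsf2 had a log2 FC of −0.44 (SE 0.36) over all AAV-Cre mice, with an AAV-GFP signal of 59.1, 27.96 and 24.9. The AAV-Cre libraries ran from 16.6 to 36.9, so that only the control at 59.1 lay outside them.

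The 20 hnRNP genes were split evenly in mice labelled obese, with 10 log2 FCs above 0 and 10 below. Of those above, 3 had an unadjusted limma p under 0.05, or 15% of the 20 against 5.11% of all entries, and 0 of those below did (4.78% of all entries). Hnrnpf, which binds G-rich RNA, had 30.2, 11.5 and 7.96 in AAV-GFP mice, 37.6, 34.95 and 26.9 in mice labelled obese, and 29.9, 16.5 and 15.4 in mice labelled nonobese. One control overlapped the mice labelled obese, whose log2 FC was 1.16 (SE 0.47, limma FDR = 0.4). Of the 50-base stretches of Hnrnpf transcripts, 36.8% also occur in other genes, so its count is uncertain. Hnrnpu, whose product binds both chromatin and RNA, had 446, 412 and 376 in AAV-GFP mice and 435, 548 and 588 in mice labelled obese, a log2 FC of 0.34 (SE 0.15, limma FDR = 0.458). Hnrnpd, a binder of AU-rich mRNA ends, had 0.46 (SE 0.22, limma FDR = 0.487).

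Hnrnpul1, related to Hnrnpu, had 200, 168 and 154 in mice labelled obese and 118, 163 and 99.4 in mice labelled nonobese. The subsets overlapped, and the log2 FC of nonobese minus obese was −0.48 (SE 0.21, limma FDR = 0.396). Hnrnpm and Hnrnpul2 had −0.35 (SE 0.19) and −0.28 (SE 0.18) in that comparison, and Hnrnpa3 had 0.31 (SE 0.21). The annotation places another gene on the same strand over part of Hnrnpm, Hnrnpul2 and Hnrnpa3, so their reads are uncertain.

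Between the AAV-Cre subsets, Srsf1 and Lsm6 were higher in mice labelled nonobese and Snrpe and Hnrnpul1 lower at an unadjusted limma p under 0.05. The subsets did not overlap for 8 members (9.64%), against 13.3% of all entries, with 3 members higher and 5 lower in mice labelled nonobese (6.61% and 6.65% of all entries). In mice labelled obese 10 members did not overlap the AAV-GFP mice, beside 14.5% of all entries. Of these, 7 were higher and 3 lower (7.18% and 7.27% of all entries). In mice labelled nonobese there were 6 such members, beside 9.72% of all entries, with 5 higher and 1 lower (4.57% and 5.15%). The 3 lower in mice labelled obese were Srsf1, Snrnp25 and Snrpa, and the 1 lower in mice labelled nonobese was Sf3b5. These shares are near or below the background. Both subsets were compared with the same 3 AAV-GFP mice.

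Levels per length, taken as mean signal over the 9 libraries per kilobase of exon, differed between families. The median was 24.0 for Hnrnp, 14.9 for Srsf, 14.3 for Sf3, 9.12 for Prpf, 8.04 for Snrp, 5.99 for Snrnp and 5.98 for Lsm genes, beside 5.06 over all tested entries. By this scale the highest of each family were Sf3b2 (63.3), Hnrnpk (61.4), Srsf5 (60.0), Prpf8 (34.1), Snrnp27 (29.7), Lsm14b (17.8) and Snrpb (14.6). The lowest were Lsm2 (1.13), Snrpg (2.40), Snrnp40 (2.41), Prpf4 (2.48), Hnrnpll (2.56), Sf3b5 (3.34) and Srsf4 (7.42). Genes whose proteins occur in the same particle thus had unlike levels per length: in the Sm core from 2.40 to 14.6, and in the SF3 genes from 3.34 to 63.3. Exon length here counts every annotated exon, which lowers the value of genes with long unused exons.

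**Figure D3:**
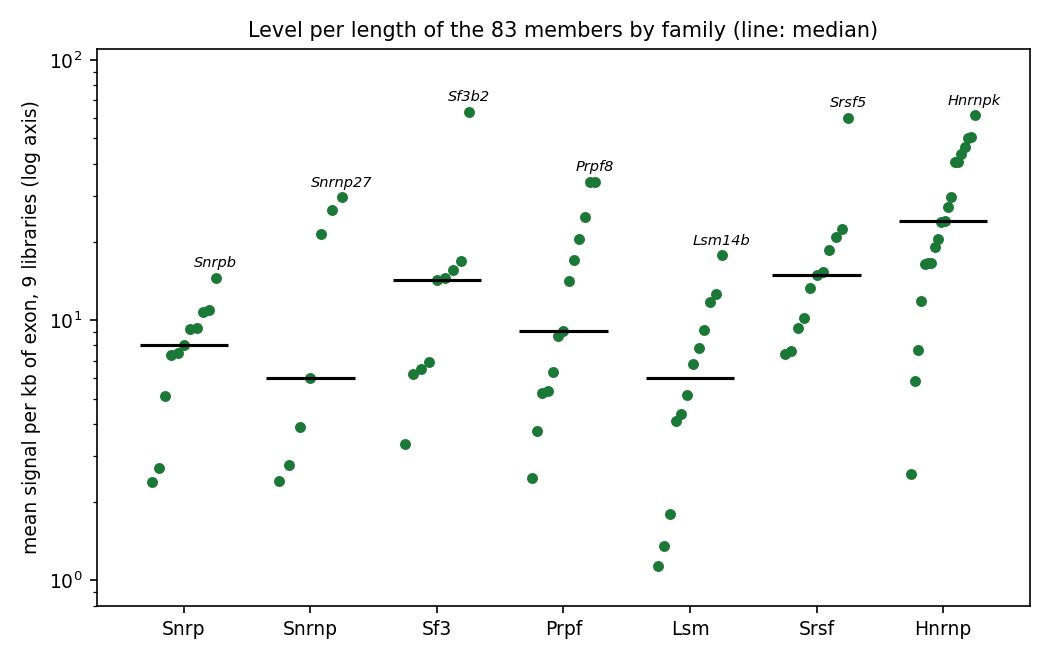
Mean signal per kilobase of annotated exon over the 9 libraries (y axis, log scale) for the 83 members by family (x axis). Points are genes in rising order and lines are family medians. Hnrnp genes have the highest median, 24.0, and Snrnp and Lsm genes the lowest, 5.99 and 5.98.

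Members with more reads varied less between mice. The median SD of log2(signal + 1) over the 9 libraries was 0.37 for the members and 0.56 for all tested entries. The members had a median of 1992 reads over the 9 libraries, against 933 for all tested entries. The median coefficient of variation between mice of a group, as edgeR estimates it, was 20.6% for Hnrnp, 24.1% for Prpf, 28.7% for Srsf, 28.7% for Sf3, 40.3% for Snrnp, 42.4% for Snrp and 47.9% for Lsm genes. The same families had a median of 5766, 3473, 2710, 1727, 1200, 870 and 531 reads. The order by variation is the reverse of the order by reads, and the edgeR estimate of each gene is itself drawn toward a trend with depth.

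The steadiest member was Hnrnpdl, an hnRNP D relative, with a signal of 172.6 in the lowest library, 198.2 in the median and 211.7 in the highest (SD 0.09 on the log2 scale). Hnrnpk, Hnrnpl and Snrnp200 had SDs of 0.10, 0.12 and 0.14. The most variable member of each family was Lsm10 (SD 1.30), Snrnp25 (0.84), Snrpe (0.75), Hnrnpf (0.74), Prpf31 (0.62), Sf3b4 (0.60) and Srsf2 (0.54). Snrnp27 had an SD of 0.61, with its 3 AAV-GFP libraries close together.

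**Figure D4:**
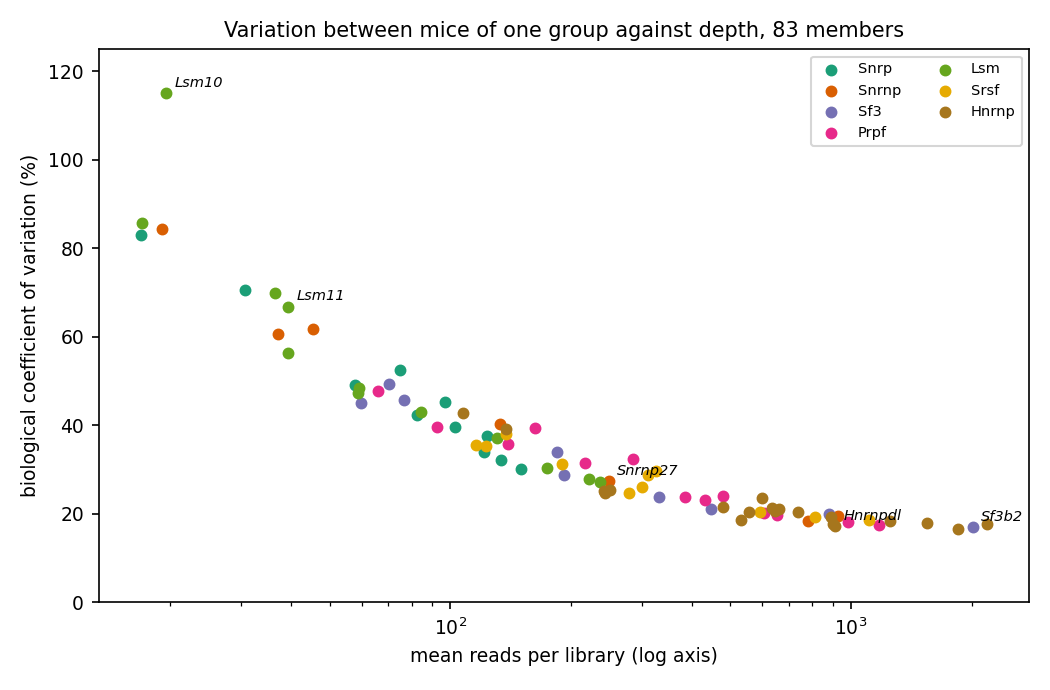
Coefficient of variation between mice of a group, estimated by edgeR (y axis, percent), against mean reads per library (x axis, log scale) for the 83 members, coloured by family. Points fall from 115.1% for Lsm10 to 16.6% for Hnrnpk, with Lsm genes at the sparse end and Hnrnp genes at the deep end.

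The annotation gives many of these genes transcripts that are marked for nonsense-mediated decay, the route by which several splicing factors are known to limit their own mRNA. Such a transcript is annotated in 35 of the 83 members (42.2%), against 28.5% of the 12558 tested protein-coding genes. It is annotated in 9 of 11 Srsf genes (81.8%), all but Srsf10 and Srsf12. The share was 53.8% in Prpf, 50% in Hnrnp, 36.4% in Snrp, 25% in Lsm, 14.3% in Snrnp and 11.1% in Sf3 genes. A retained-intron transcript is annotated in 59 members (71.1%) against 59.1%. The deposited values are sums per gene, so that a shift between productive and decaying transcripts of a gene could not be measured here.

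Paralogs and processed copies limit some counts. Of the members, 26 had no 50-base stretch that occurs in another annotated gene, 12 had over 10% of their stretches shared, and 0 had over 50%. The most shared were Sf3b4 (43.6%), Hnrnpf (36.8%), Hnrnpa1 (28.2%), Hnrnpa3 (27.1%) and Snrpf (21.3%), while Snrnp27 had 0.109%, Sf3b2 0.362% and Prpf38b 0%. How reads with several matches were treated is not given in the sources used here. Exons of 27 members overlap another annotated gene, 6 on the same strand and 22 on the opposite strand. Members with an overlap on the opposite strand include Sf3b2, Srsf1, Srsf2, Snrpa, Hnrnpu and Hnrnpd. The kit keeps strand, and whether the counting used it is not given.

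Splicing genes outside these families likewise held no call by limma. Of 113 listed, 109 were tested and 0 had an FDR under 0.1 by limma in any comparison. At an unadjusted limma p under 0.05 there were 13 in mice labelled obese (9 higher, 4 lower), 2 in mice labelled nonobese (both higher) and 4 over all AAV-Cre mice (3 higher, 1 lower). These are 11.9%, 1.83% and 3.67% of the 109, near the shares of all entries (9.88%, 2.27% and 3.14%). Their summed signal was 9802 to 10062 in AAV-GFP mice, 10840.0 to 11125 in mice labelled obese and 10245 to 10634 in mice labelled nonobese. All 6 AAV-Cre libraries thus lay above the controls in this sum. The sum over the 83 members overlapped, with 6708 to 7410, 7239 to 7766 and 7254 to 7579. Sums are set mostly by genes with many reads, and how often other sums separate was not examined. By gene, the median log2 FC of the 109 over all AAV-Cre mice was 0.04, with 65 above 0 and 44 below. The sum of the 27 neuronal and tissue regulators among them overlapped between groups. Of the SR-related factors and SR protein kinases, a group picked out after its values were seen, 4 of 17 (23.5%) were higher at that level in mice labelled obese (5.11% of all entries): Tra2a, Srrm1, Srrm2 and Rbm25. Tra2a, a regulator that works beside SR proteins, had a signal of 41.6, 40.2 and 37.3 in AAV-GFP mice, 68.0, 77.6 and 77.8 in mice labelled obese, and 35, 30.9 and 47.8 in mice labelled nonobese. The mice labelled obese lay above the other 6, with a log2 FC of 0.89 (SE 0.28, limma FDR = 0.233). The summed signal of the 17 genes was 3179 to 3441 in AAV-GFP mice, 3741 to 4124 in mice labelled obese and 3386 to 3667 in mice labelled nonobese.

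Some markers of other cells moved in the mice labelled obese, and their part in the values above was not tested. The summed signal of 7 oligodendrocyte genes was 1208 to 1890 in AAV-GFP mice, 873.5 to 1134 in mice labelled obese and 1204 to 2675 in mice labelled nonobese, and that of 5 endothelial genes was 69.8 to 101.3, 121.9 to 147.1 and 68.1 to 94.0. The summed signal of 7 astrocyte genes overlapped, with 1950 to 2393 in AAV-GFP mice, 2293 to 3039 in mice labelled obese and 1778 to 2414 in mice labelled nonobese. In the obese-labelled subset against the controls, 5 of the 7 had a log2 FC above 0. S100b (−0.37) and Slc1a2 (−0.10) were below 0. Gfap and Aqp4 passed an FDR of 0.1 by limma in that comparison, both upward. Gfap, an intermediate filament of reactive astrocytes, had a signal of 83.03, 60.3 and 10.1 in AAV-GFP mice and 369, 129.8 and 640.1 in mice labelled obese, a log2 FC of 3.03 (SE 0.55, limma FDR = 0.0119). Aqp4, their water channel, had a log2 FC of 1.19 (SE 0.27, limma FDR = 0.0559). The sum over the 4 B and plasma cell genes analysed was at most 1.496 in AAV-GFP mice, 65.4 to 4844 in mice labelled obese and 19.6 to 37.6 in mice labelled nonobese. Without the immune-rich replicates 1 and 3 labelled obese, 0 members were called by limma in the remaining AAV-Cre mice against AAV-GFP (0.0225% of all entries), and 2 of 83 had an unadjusted p under 0.05 (3.8% of all entries).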

How the data were processed

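Reads were mapped by the authors to GRCm38 with TopHat2 2.0.11. The submitters' processing notes also name CASAVA 1.7, HTSeq, edgeR and limma. The unit of the deposited table is signal, for which the authors scaled library sizes by TMM before division. When divided by the worth of 1 read, 100% of the values were whole (within 0.01 read), so reads were recovered for count tests. Totals were 3929672 to 5766994 reads per library, which limits the precision of low genes. No column was left unmapped to a sample.

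Symbols were matched for 13446 of 13586 Ensembl identifiers through the GENCODE M21 annotation. Log2(signal + 1) was tested with limma 3.58.1 in R 4.3.3, with a variance trend. P values were adjusted by Benjamini-Hochberg over 13506 entries, those that reached a signal of 1 in 3 or more libraries. Log2 FCs on this scale understate changes of low genes. Both subsets and AAV-GFP entered a fit of 3 groups, and all AAV-Cre mice were compared in a fit of 2 groups. The design had assumed CPM, and the same test was used for signal. Exact permutation tests were used for single values, where 3 mice against 3 cannot go below p = 0.1. Alternatives were other pseudocounts and filters, 2 other scalings, no variance trend, the average of both subsets, a replicate block, edgeR 4.0.16, DESeq2 1.42.0 and leaving out each mouse. The procedures were run on simulated counts with known changes, as a check of the code. The simulation drew each gene on its own and held no immune-rich libraries. It therefore does not show which changes these libraries could detect.

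Members named with values were, in each comparison, the 5 with the lowest p in each direction, the highest, lowest and most variable of each family, and the Sm core. Others are named as examples of their group or because their groups did not overlap, chosen after their values were seen. Members and lists were chosen with earlier results of these data known. Replicates were separate mice per the labels, and a search within each group for a library deposited in duplicate found none (chi-square per degree of freedom 12.2 to 43.8 between libraries of a group). That search did not cover pairs of libraries from different groups. Snord116 and Snrpn were not analysed here.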

Additional observations from a re-analysis of the deposited data

Results flagged for a closer look

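Single libraries stood far from the other AAV-Cre libraries in 4 of the 83 members, by the gap to the nearest value as a share of the range over the 6 AAV-Cre mice. Chance flags about 4.2 such cases in as many groups. Hnrnph3 had a signal of 39.7 in replicate 3 labelled obese, with a gap of 0.651 of the range. Srsf10 had 36.0 in the same library, with a gap of 0.802. Snrnp48, of the minor spliceosome, had 9.17 in replicate 2 labelled nonobese, with a gap of 0.654. Lsm14a, a component of cytoplasmic mRNA granules, had 29.9 in replicate 3 labelled nonobese, with a gap of 0.696. Each of the 4 was a low value. All 4 genes had an FDR over 0.1 by limma in each comparison.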

How the results depend on the processing

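The count of members called in mice labelled obese against AAV-GFP was 0 by limma and became 1, Snrnp27, under the edgeR likelihood ratio test (log2 FC 1.09), under DESeq2 (1.11) and, in a fit added after the values were seen, without the immune-rich replicates 1 and 3 labelled obese (1.56). The cause was not tested. The other alternatives gave 0 members in the 4 comparisons, the fits without each mouse included. The median log2 FC of the members moved by less than its spread between replicates under every alternative, between −0.04 and 0.10 in mice labelled obese, so that its sign was not stable there. For the 10 members of lowest p named in each comparison, 5 in each direction, no alternative turned the sign of the log2 FC. They were picked by p from the same values, which favours a stable sign. Among all 83 members, at least 1 alternative turned it for 43 in mice labelled obese, 42 in mice labelled nonobese, 33 over all AAV-Cre mice and 46 between the subsets. Those included Snrpb (without 1 library, −0.02 over all AAV-Cre mice), Prpf31 (−0.15) and Prpf4 (−0.19).

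Over all 13506 entries the calls in mice labelled obese were 75 by limma, 93 by edgeR quasi-likelihood, 260 by edgeR likelihood ratio, 275 by DESeq2, 34 and 143 with pseudocounts of 0.1 and 5, and 5 without a variance trend. Between the subsets they were 128 by limma and 15 to 398 under these alternatives. Single libraries moved both counts further. In mice labelled obese the calls rose from 0.555% to 5.27% of all entries without replicate 2 of that subset, but were 9 and 12 entries without its replicates 1 and 3, and 8, 41 and 22 without AAV-GFP replicates 1, 2 and 3. Between the subsets there were 906 (6.72%) without replicate 2 labelled obese, 2 and 3 without its replicates 1 and 3, 85 without AAV-GFP replicate 1, and 79, 55 and 61 without replicates 1, 2 and 3 labelled nonobese. The shares of all entries given beside the members rest on these libraries. Replicate numbers come from the titles, and same-numbered libraries are different mice. Libraries of different groups were correlated over all tested entries, on deviations of log2(signal + 1) from the mean of each group. The correlations were −0.02 to 0.09 in the 9 same-number pairs and −0.09 to 0.04 in pairs of different number. Correlations over all entries cannot show whether the numbers follow the region matching of the controls. Replicate 3 of every group was low in Nr5a1, Fezf1 and Pomc, and whether same-numbered libraries share a captured region was not tested. With a replicate block limma called 0 members in each comparison and 200 of all entries in mice labelled obese, where Snrnp27 had an FDR of 0.114. On these deviations, each library correlated best with its own number in 10 of 18 cases, with 3 libraries to choose from in each case. Members with few reads, such as Lsm10, Lsm2, Snrpg and Snrnp25, allow only wide intervals, up to 4.09 on the log2 scale.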

Other observations

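Lsm10 was the member with the largest SD over the 9 libraries, and the members with the most similar log2 pattern were Snrpa1 (Pearson's r = 0.81 over the 9 libraries), Sf3a2 (0.76) and Hnrnph3 (0.70). Of all other tested genes the most similar were Hbegf (0.99), Mcts1 (0.96) and Ppox (0.95). Lsm10 had 176 reads in all, so this is a description of sparse counts that share libraries and depth.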
